A study of Mus musculus with 11 samples.

Results

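The 10 genes described here, of 28284 listed by symbol, encode the class I antigen presentation pathway and the checkpoint ligand PD-L1. They were chosen by name: H2-K1 and H2-D1 (class I heavy chains), B2m (the light chain), Tap1, Tap2 and Tapbp (peptide transport and loading), Psmb8 and Psmb9 (immunoproteasome subunits), Nlrc5 (a transcriptional activator of class I genes), and Cd274 (PD-L1). All 10 were found in the count table, and all 10 passed the filter on low counts in each of the 3 comparisons below.

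Class I molecules show peptides from inside the cell to CD8 T cells. Proteasomes cut proteins into peptides, and immunoproteasomes do so with catalytic subunits that replace the constitutive ones. The Tap1 and Tap2 transporter carries the peptides into the endoplasmic reticulum, where tapasin (Tapbp) helps to load them onto a heavy chain bound to beta-2 microglobulin. Interferon gamma induces most of these genes and also Cd274, whose product restrains T cells through PD-1. Tumors are known to reduce parts of this pathway.

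The data are bulk mRNA libraries, 1 for each of 11 cell lines grown from 7 female mice. All mice carried the Ovgp1-Trp53-R270H-Myc transgene (OvTrpMyc), in which the Ovgp1 promoter, active in the epithelium of the fallopian tube, drives mutant p53 and Myc from the Trp53 locus of C57BL/6 mice, so there was no line without it. Of these lines, 7 came from ovary with fallopian tube (ROV, right: F318, F319, F326, F339, F364; LOV, left: F318, F364), 2 from uterus (F319, F333) and 2 from tumors (F326, on the spleen; F361, in the peritoneum). Cells received no treatment and grew in RPMI medium. The labels do not give the ages of the mice. According to the study, the F361 line did not retain expression of mutant p53. As 4 of the 7 mice are represented by 2 lines, the lines are not all independent, and p-values measure only the spread between lines.

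Depth per library was between 13580525 and 27044598 counts. At these depths 3 counts, taken as the limit of detection, amount to 0.111 to 0.221 CPM (counts scaled to a library total of 1000000). The libraries numbered 1 to 7 in the labels (both tumor lines and 5 ovary lines) stood apart from those numbered 8 to 11 (both uterus lines and the ovary lines F318 LOV and F339 ROV). A list of muscle fiber genes took 8.51% to 17.4% of the counts in libraries 1 to 7 and 0.278% to 1.53% in libraries 8 to 11, and the summed CPM of 22 leukocyte markers ranged from 89.2 to 163.7 in the former and from 7.25 to 18.7 in the latter. The labels call the cells ovarian cancer. The 13 epithelial markers of the list summed to 7.68 CPM (F326 ROV) to 169.4 CPM (F319 ROV). Ovgp1, the oviduct gene whose promoter drives the transgene, was above the limit of detection in all 11 lines (median 1.45 CPM, highest 6.52 CPM), whereas Pax8, a marker of fallopian tube epithelium, was at 3.04 CPM in F319 ROV and at most at 0.259 CPM in the other 10 lines. Krt7 was highest in the F333 uterus line (40.5 CPM) and Krt18 in F319 ROV (67.9 CPM). Between the library sets described above, 2 of the 6 epithelial markers tested were lower in libraries 8 to 11 (Krt18 and Ovgp1) and 0 higher. Of all genes tested, 29.9% were lower and 28.6% higher, so the share of lower markers was near the background. On the CPM scale the median gene was 0.39 log2 units higher in libraries 8 to 11, so member levels in these libraries are read against that shift. Because both uterus lines fell in libraries 8 to 11 and both tumor lines in libraries 1 to 7, each organ comparison is partly a comparison of the library sets.

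Of the members, 7 lie on chromosome 17 of GRCm38, in the mouse major histocompatibility complex. In order they are Tapbp (33915899 to 33929292), H2-K1 (33996017 to 34000347), Psmb9 (34181987 to 34187764), Tap1 (34187553 to 34197225), Psmb8 (34197721 to 34201454), Tap2 (34203527 to 34216321) and H2-D1 (35262730 to 35267499). B2m lies on chromosome 2 (122147686 to 122153083), Nlrc5 on chromosome 8 (94434356 to 94527272) and Cd274 on chromosome 19 (29367455 to 29388095). Psmb9 and Tap1 are transcribed away from each other and share 212 exon bases on opposite strands. Exons of Tap2, Tapbp, Psmb8, Cd274 and Nlrc5 overlap those of neighbors by 698, 1053, 498, 511 and 78 bases. These neighbors lie on the opposite strand, except Zbtb22, which overlaps Tapbp on the same strand. The strand setting of the counting is not given in the sources used here. The class I heavy chains have many near relatives, but no stretch of 150 bases (the read length) of H2-K1 was found in a transcript of another gene, and 1.79% of those of H2-D1 were shared, with H2-Q1.

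The heavy chains and B2m are shown with their upstream sequence because their levels moved apart between the lines. RefSeq promoters of GRCm38.p6 were matched for 8 of the 10 members; Tap2 and Nlrc5 were not matched. Capitals mark letters that match, on either strand, an interferon-stimulated response element (GAAANNGAAA), a gamma-activated site (TTCNNNGAA) or a kappa B motif (GGGNNNNNCC, whose matches on both strands can overlap). The stretch upstream of H2-K1 lies at chr17:34000398-34000497 on the minus strand, 150 to 51 bases before the start site, and that of B2m at chr2:122147537-122147636 on the plus strand, at the same distance.
H2-K1: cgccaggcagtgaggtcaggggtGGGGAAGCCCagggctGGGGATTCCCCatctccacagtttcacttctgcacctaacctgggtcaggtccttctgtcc
B2m: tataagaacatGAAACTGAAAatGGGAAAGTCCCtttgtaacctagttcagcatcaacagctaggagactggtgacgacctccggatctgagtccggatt

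The 30 bases that hold both kappa B stretches capitalised above for H2-K1 (chr17:34000448-34000477, minus strand) were found letter for letter upstream of H2-D1 (chr17:35262904-35262933, plus strand), 190 to 161 bases before its start site. A further kappa B match of H2-K1, 227 to 218 bases before its start site, lies outside these stretches, and the corresponding position upstream of H2-D1 lies beyond the window searched.
H2-K1: ggtGGGGAAGCCCagggctGGGGATTCCCC
H2-D1: ggtGGGGAAGCCCagggctGGGGATTCCCC

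Set side by side without gaps at this position, 166 of 190 bases of the 2 windows were identical. The exact letters of the response element were found in B2m only among the 8 members, against 3.46% of 27025 genes with a window of 250 bases before the start. Variants of these letters were not searched, so a member without a match, such as H2-K1 or H2-D1, may still hold such an element. The gamma-activated site was found in Psmb8 only, against 8.13% of genes. The kappa B letters are loose, being present in 48.7% of genes, and were found in 5 of 8 members (H2-K1, H2-D1, B2m, Tap1 and Psmb9, of which the last 2 share most of their window). A CCAAT box (CCAAT) was present in 6 of 8 members and 37.5% of genes, and an E-box (CACGTG) in 0 of 8 members and 6.86% of genes. Cd274 held none of these letters in its window.

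Per exon length (RPKM, CPM per kilobase of GENCODE M21 exon), the members spanned a wide order of levels. The median over the 11 lines was 142.8 RPKM for B2m, 61.3 for H2-D1, 35.2 for H2-K1 and 15.0 for Tapbp. It was 3.04 RPKM for Tap2, 1.40 for Psmb8, 1.33 for Tap1, 0.562 for Psmb9, 0.325 for Cd274 and 0.194 for Nlrc5. Structural parts of the class I molecule thus stood above the transporter, the immunoproteasome and the regulator. The ranges of neighbors in this order overlapped (62.2 to 517 RPKM for B2m and 11.7 to 100.8 for H2-D1, for example), as did those of Tap1 (0.247 to 3.61) and Psmb8 (0.0904 to 5.87).

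**Figure D1:**
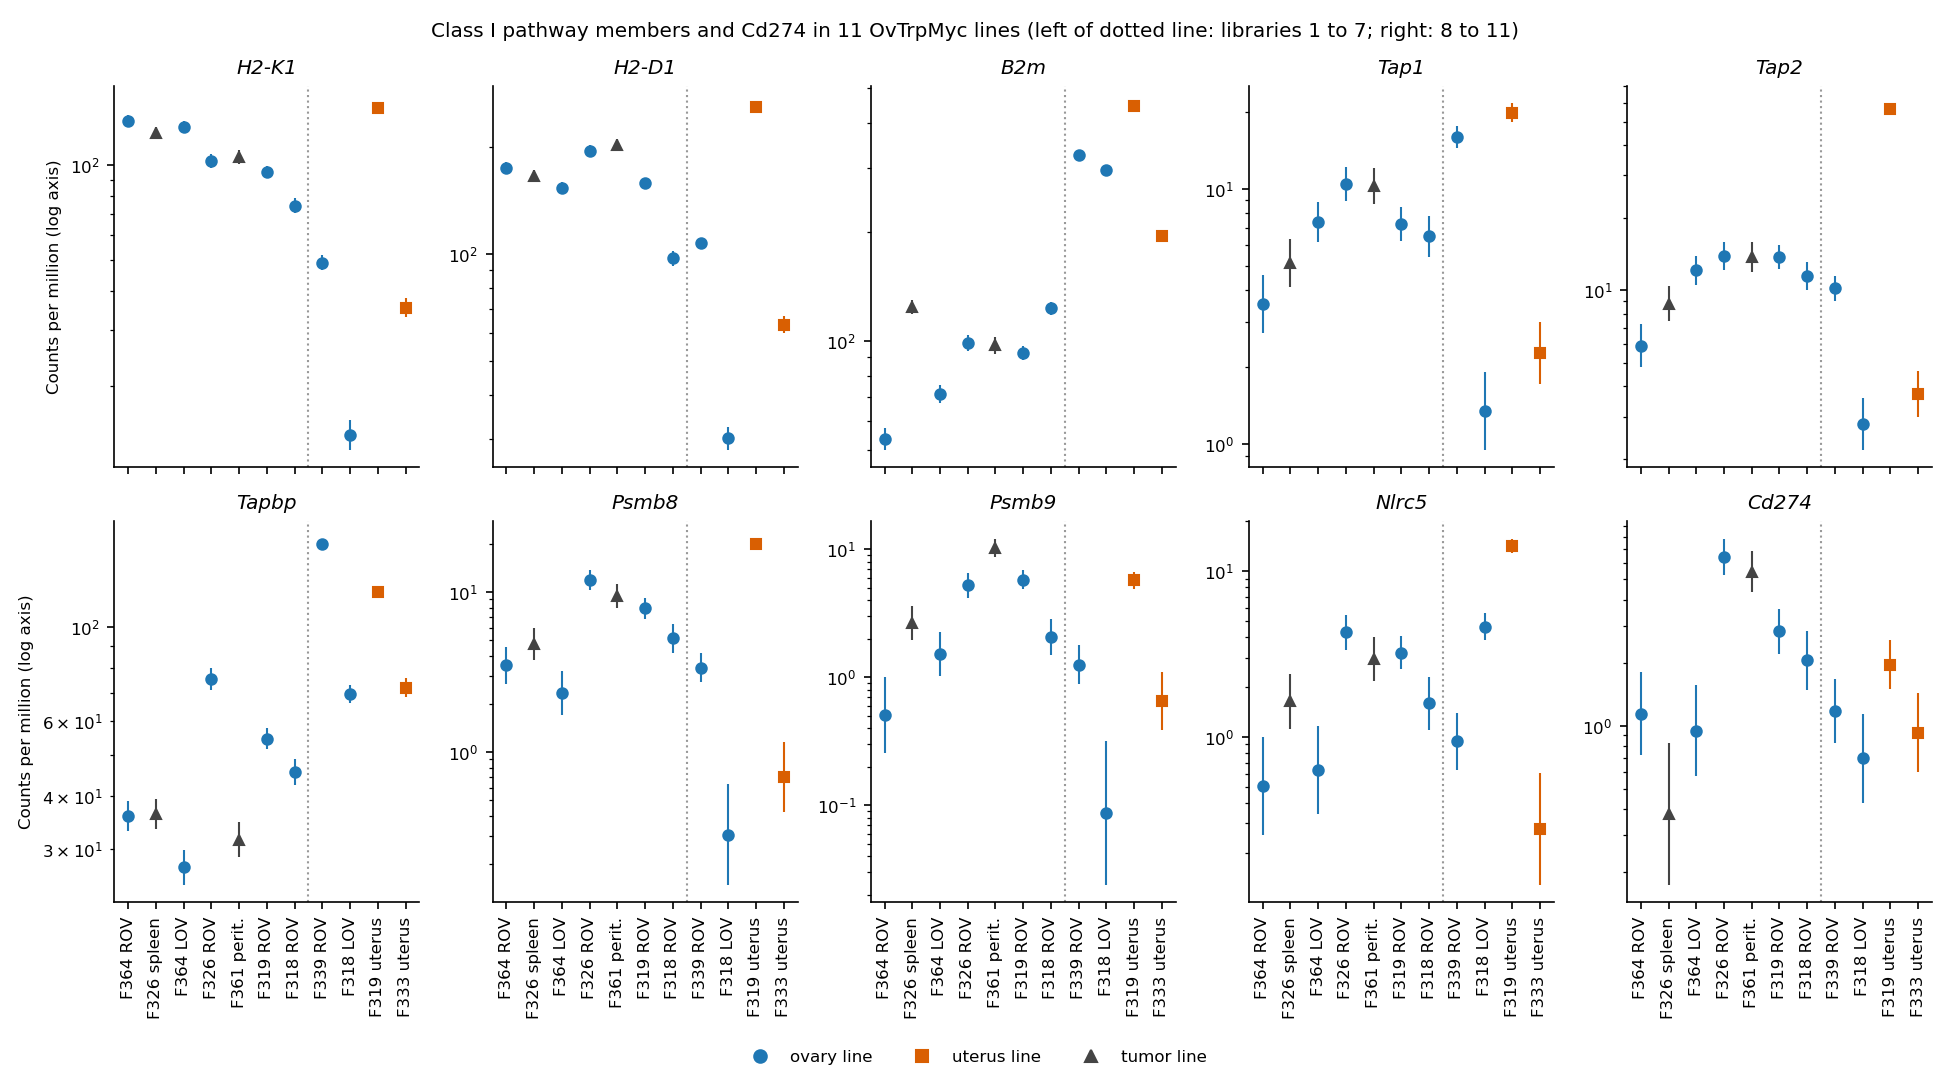
CPM on a log axis of the 10 members in each of the 11 lines, ordered by library number, with 95% Wilson intervals that cover counting error only. The F319 uterus line is highest for 7 of the 10 genes (5 with TMM-scaled CPM) and F318 LOV lowest for 6. B2m is higher in all 4 libraries right of the dotted line than in the 7 left of it, as are 26.1% of all genes tested.

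The heavy chains were highest in the F319 uterus line and lowest in F318 LOV on the CPM scale. H2-K1 was at 138 CPM in F364 ROV, 132 in F364 LOV, 127 in the F326 splenic tumor line, 106 in the F361 peritoneal tumor line, 103 in F326 ROV, 94.97 in F319 ROV and 74.6 in F318 ROV, and in libraries 8 to 11 it was at 152 in the F319 uterus line, 49.1 in F339 ROV, 35.4 in the F333 uterus line and 14.0 in F318 LOV. Libraries 1 to 7 thus lay within a narrow range, and 3 of the other 4 lines lay below all of them while the F319 uterus line lay above. With TMM-scaled CPM the highest line was F364 ROV for H2-K1 and F361 for H2-D1, in place of the F319 uterus line. H2-D1 was at 175 CPM in F364 ROV, 166 in the F326 splenic tumor line, 154 in F364 LOV, 195 in F326 ROV, 203 in F361, 158 in F319 ROV and 97.2 in F318 ROV, and then at 107 in F339 ROV, 30.3 in F318 LOV, 260 in the F319 uterus line and 63.3 in the F333 uterus line. It followed H2-K1 (Pearson's r 0.96, Spearman's rho 0.81 over 11 lines), and H2-K1 counts were 45.8% to 85.7% of H2-D1 counts in every line. From lowest to highest line, H2-K1 differed 10.9-fold and H2-D1 8.60-fold.

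B2m, the light chain that all classical class I heavy chains need to reach the surface, had another order. It was at 53.5 CPM in F364 ROV, 71.4 in F364 LOV, 92.5 in F319 ROV, 97.3 in F361, 98.8 in F326 ROV, 123 in F318 ROV and 124 in the F326 splenic tumor line, and at 194.5 in the F333 uterus line, 296 in F318 LOV, 325.5 in F339 ROV and 445 in the F319 uterus line. The library sets did not overlap, also when CPM were scaled by TMM or when muscle fiber genes were left out of the totals. Of all genes tested, 26.1% were likewise higher in libraries 8 to 11 without overlap in CPM. B2m and H2-K1 were negatively correlated over the lines (r -0.49, rho -0.35). F318 LOV, the lowest line for both heavy chains, had the third highest B2m. The authors removed PCR duplicates by position, which can lower the counts of short, abundant transcripts such as B2m.

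The ratio of H2-K1 to B2m counts within a library therefore separated the lines. H2-K1 counts were 257.9% of B2m counts in F364 ROV, 184.7% in F364 LOV, 60.7% in F318 ROV and between 102.1% and 109.2% in the other 4 lines of libraries 1 to 7. They were 34.3% in the F319 uterus line, 18.2% in the F333 uterus line, 15.1% in F339 ROV and 4.73% in F318 LOV. On the log2 scale the ratio ran from -0.72 to 1.37 in libraries 1 to 7 and from -4.40 to -1.55 in libraries 8 to 11, with no overlap. Many single genes separated the sets in CPM too, 26.1% of those tested being higher in libraries 8 to 11 and 17.1% lower. B2m was among the former. The share of gene pairs whose ratio did so was not computed. Library size cancels in such a ratio. The muscle fiber share splits the lines in the same way. Within the sets the order of the lines differed. F318 ROV had the lowest share (8.51%) and the lowest ratio of libraries 1 to 7, but F361 had the highest share (17.4%) with a ratio of 109.2%, and in libraries 8 to 11 the highest share was in the F333 uterus line (1.53%) and the highest ratio in the F319 uterus line. The part of the muscle fiber share in the ratio was not tested, nor was the difference between library sets on the ratio itself.

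**Figure D2:**
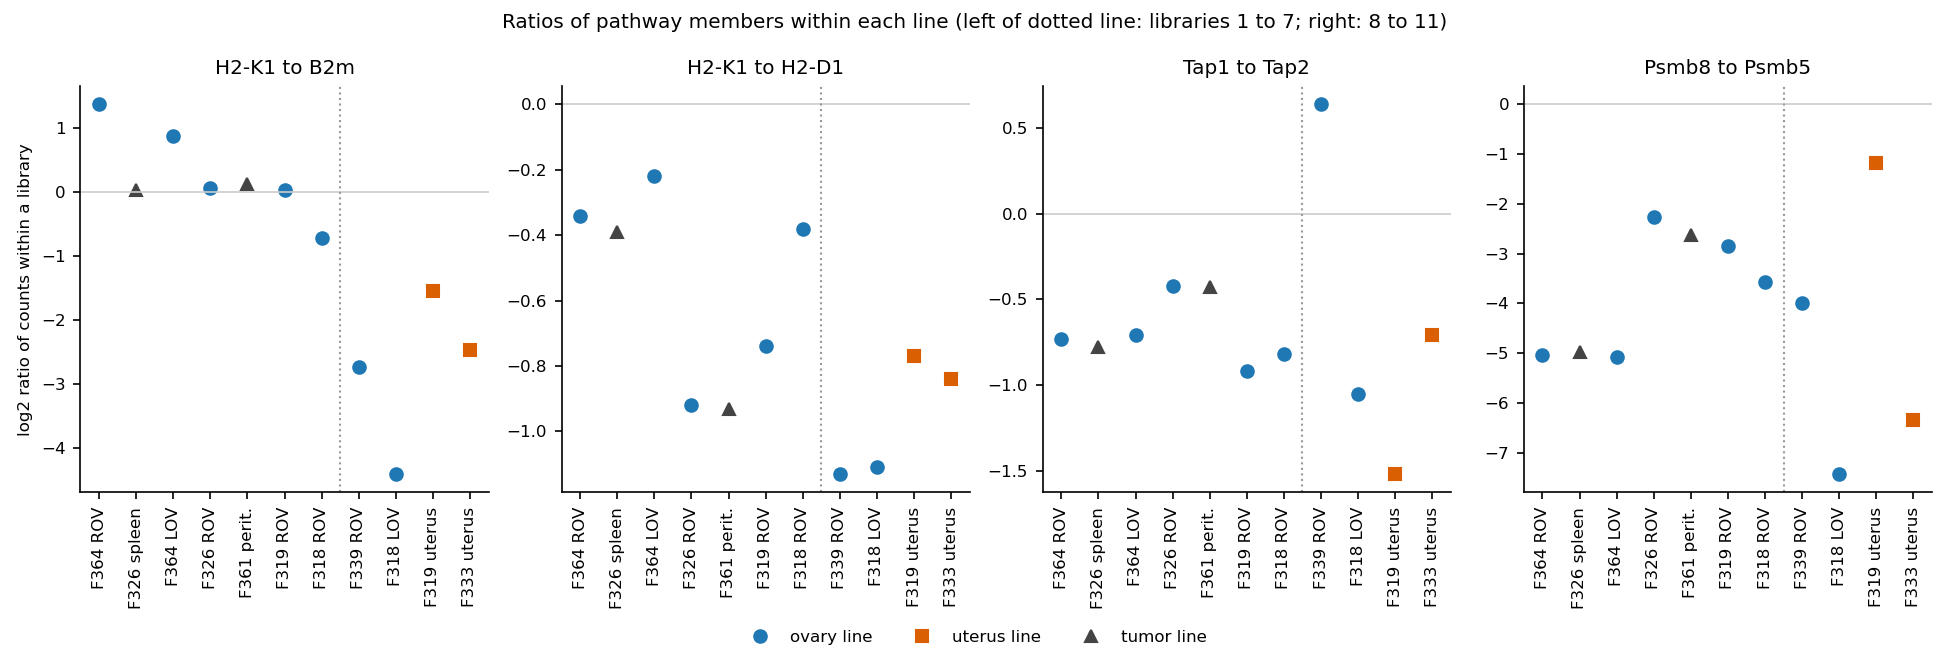
Log2 ratio of counts within each library for 4 gene pairs, with lines ordered by library number. H2-K1 to B2m lies between -0.72 and 1.37 left of the dotted line and between -4.40 and -1.55 right of it, Tap1 to Tap2 is above 0 in F339 ROV only, and Psmb8 to Psmb5 runs from -7.43 in F318 LOV to -1.18 in the F319 uterus line.

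The transporter genes Tap1 and Tap2 varied with each other (r 0.88, rho 0.85 over 11 lines, and r 0.94 within libraries 1 to 7). Tap1 was at 3.55 CPM in F364 ROV, 5.13 in the F326 splenic tumor line, 7.40 in F364 LOV, 10.4 in F326 ROV, 10.2 in F361, 7.25 in F319 ROV, 6.51 in F318 ROV, 15.9 in F339 ROV, 1.35 in F318 LOV, 19.8 in the F319 uterus line and 2.27 in the F333 uterus line. Tap2 was at 5.90 CPM in F364 ROV, 8.80 in the F326 splenic tumor line, 12.1 in F364 LOV, 13.9 in F326 ROV, 13.8 in F361, 13.7 in F319 ROV, 11.5 in F318 ROV, 10.2 in F339 ROV, 2.79 in F318 LOV, 56.7 in the F319 uterus line and 3.71 in the F333 uterus line. For both genes F318 LOV was lowest, the F333 uterus line next, and the F319 uterus line highest. The sets of libraries overlapped for both. F339 ROV departed from the common course, since Tap1 counts were 156% of Tap2 counts there and 34.9% to 75.0% in the other 10 lines.

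Tapbp did not follow the transporter (r 0.35 with Tap1 and 0.22 with Tap2) but resembled B2m (r 0.83, rho 0.77, although r was 0.32 within libraries 1 to 7). It was at 35.8 CPM in F364 ROV, 36.3 in the F326 splenic tumor line, 27.2 in F364 LOV, 75.3 in F326 ROV, 31.5 in F361, 54.5 in F319 ROV, 45.6 in F318 ROV, 156 in F339 ROV, 69.6 in F318 LOV, 121 in the F319 uterus line and 72.0 in the F333 uterus line. Only F326 ROV among libraries 1 to 7 reached the range of libraries 8 to 11. Its spread from lowest to highest line, 5.76-fold, was the smallest of the 10 members.

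The immunoproteasome subunit Psmb8 had the widest spread of the members on the log2(CPM + 1) scale (SD 1.204, range 3.998). It was at 3.49 CPM in F364 ROV, 4.75 in the F326 splenic tumor line, 2.34 in F364 LOV, 12.0 in F326 ROV, 9.50 in F361, 7.93 in F319 ROV, 5.14 in F318 ROV, 3.37 in F339 ROV, 0.306 in F318 LOV (7 counts), 19.9 in the F319 uterus line and 0.696 in the F333 uterus line. Psmb9 was at 0.507 CPM in F364 ROV (8 counts), 2.66 in the F326 splenic tumor line, 1.52 in F364 LOV, 5.21 in F326 ROV, 10.2 in F361, 5.78 in F319 ROV, 2.06 in F318 ROV, 1.25 in F339 ROV, 0.0873 in F318 LOV (2 counts, under the limit of detection), 5.69 in the F319 uterus line and 0.650 in the F333 uterus line. Both were low in F318 LOV and the F333 uterus line, and for Psmb8 the F319 uterus line ranked 1 and the F333 uterus line 10 of 11. Psmb8 differed 65.0-fold between its lowest and highest line.

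The constitutive counterparts covered narrower ranges, and part of them were low in the same lines. Psmb6 was lowest in F318 LOV (110.9 CPM) and next in the F333 uterus line (125.1 CPM), with 427.8 CPM at its highest, and Psmb7 was lowest in the F333 uterus line (78.3 CPM). Psmb5, which Psmb8 replaces in the immunoproteasome, ranged from 45.0 CPM in the F319 uterus line to 148.7 CPM in the F326 splenic tumor line, so that Psmb8 counts were 44.1% of Psmb5 counts in the F319 uterus line, 20.7% in F326 ROV and 0.582% in F318 LOV. In the F333 uterus line this share was 1.22%. Psmb9 counts were 3.91% of those of Psmb6, its constitutive counterpart, in F361 and 0.0787% in F318 LOV. The latter rests on 2 Psmb9 counts, under the limit of detection, as does any Psmb9 share in that line. Psmb10, the remaining immunoproteasome subunit, varied less, with 8.10 CPM in F364 LOV at the low end and 27.1 CPM in F361 at the high end, and its counts were 5.46% to 25.9% of those of Psmb7. Although Psmb9 and Tap1 lie head to head, the ratio of their counts was not constant. Psmb9 counts were 6.45% of Tap1 counts in F318 LOV (2 Psmb9 counts), 7.88% in F339 ROV and 100% in F361.

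Nlrc5, the activator of class I promoters, was at 0.507 CPM in F364 ROV (8 counts), 1.65 in the F326 splenic tumor line, 0.633 in F364 LOV, 4.27 in F326 ROV, 2.95 in F361, 3.22 in F319 ROV, 1.60 in F318 ROV, 0.941 in F339 ROV, 4.63 in F318 LOV, 14.3 in the F319 uterus line and 0.279 in the F333 uterus line (6 counts). F318 LOV, with the second highest Nlrc5, was lowest for 6 of the other members. Within libraries 1 to 7, Nlrc5 and Psmb8 were correlated with r 0.96, against 0.59 over all 11 lines. In F318 LOV, Nlrc5 was the second highest of the 11 lines and Psmb8 the lowest. With H2-K1, Nlrc5 had r 0.08 over 11 lines and -0.53 within libraries 1 to 7. These correlations describe lines that share mice and library sets.

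Cd274 was near the floor in several lines. It was at 1.14 CPM in F364 ROV, 0.380 in the F326 splenic tumor line (6 counts), 0.949 in F364 LOV, 6.41 in F326 ROV, 5.45 in F361, 2.82 in F319 ROV, 2.06 in F318 ROV, 1.18 in F339 ROV, 0.698 in F318 LOV, 1.96 in the F319 uterus line and 0.928 in the F333 uterus line. The highest and the lowest line were both from mouse F326. The Wilson interval was 5.25 to 7.83 CPM in F326 ROV and 0.174 to 0.828 CPM in the F326 splenic tumor line. Pdcd1lg2, the other ligand of PD-1, had 0 counts in 10 lines and 4 counts in F318 ROV (0.228 CPM). A count of 0 allows up to the 3-count level of each library. Cmtm6, whose product keeps PD-L1 at the cell surface, ranged from 9.96 CPM in F364 ROV to 35.8 CPM in F339 ROV.

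The spread of every member lay above the median gene and below the most variable ones. Among 14665 genes with a mean of at least 1 CPM, the median SD of log2(CPM + 1) over the 11 lines was 0.726. The members' SDs ran from 0.777 for Cd274 (percentile 54.4 of those genes) to 1.204 for Psmb8 (percentile 80.3). Of the 45 pairs of members, 37 had a positive r and 14 had an r of at least 0.7. The 8 negative pairs all included B2m, Tapbp or both. Within libraries 1 to 7, 36 pairs were positive, and there H2-K1 was negatively correlated with every member but H2-D1 (r 0.61), for example with Tap2 (-0.55, against 0.69 over 11 lines) and Psmb8 (-0.48, against 0.75). By the mean z-score over the 10 members, the F319 uterus line was highest (1.38), F326 ROV (0.65) and F361 (0.48) followed, and the F333 uterus line (-0.81) and F318 LOV (-0.98) were lowest.

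The gene whose log2(CPM + 1) most resembled this mean, of 14655 other genes, was Vsir (r 0.967, rho 0.964 over 11 lines, and r 0.967 within libraries 1 to 7), which encodes the checkpoint protein VISTA. Its level was 1.05 CPM in F318 LOV, the lowest line, and 39.2 CPM in the F319 uterus line, the highest. Efs (0.929), Mfsd11 (0.928), Gpatch3 (0.919) and Pdlim4 (0.918) came next by r. The genes most like Cd274 were Rtn4ip1 (r 0.986), Mrs2 (0.961), Gm44349 (0.957), Has3 (0.956) and Trim68 (0.953). With so many genes and 11 lines, high coefficients arise among many genes, and they are given as a description.

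The first comparison was that of organs, 2 uterus lines against 7 ovary lines. edgeR's quasi-likelihood test called 0 of 17446 genes at a Benjamini-Hochberg adjusted p under 0.05 (0%), with 2308 at an unadjusted p under 0.05, and 0 of 10 members. DESeq2 called 1315 genes and 0 members. The largest fitted member difference was +1.43 (log2, SE 1.08, edgeR adjusted p = 0.456) for Nlrc5, followed by +1.29 (SE 0.79, adjusted p = 0.392) for Tap2 and +0.96 (SE 0.56, adjusted p = 0.384) for B2m. The median over the members was +0.35, against -0.05 over all genes tested. The uterus lines themselves were far apart, since the F319 uterus line was the highest line for 7 members (5 with TMM-scaled CPM) and the F333 uterus line was among the 3 lowest for 8. Without the F319 uterus line Nlrc5 was fitted at -3.03 and Tap2 at -1.53. Without the F333 uterus line they were at +2.41 and +2.20. Of the 10 fitted differences, 9 changed sign under at least 1 alternative, so no direction is given for the pathway in the uterus. The remaining one, B2m, fell to +0.07 with the library set as a term and to +0.02 within libraries 8 to 11.

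The tumor lines, 2 against 7 ovary lines, also gave 0 of 16768 genes by edgeR (0%), with 1371 at an unadjusted p under 0.05, and 0 of 10 members. DESeq2 called 266 genes and 0 members. The largest member difference was +1.66 for Psmb9 (log2, SE 1.10, edgeR adjusted p = 0.581), which was +0.34 without the F361 line and +2.33 without the F326 splenic tumor line. Of the 10 fitted differences, 5 changed sign under at least 1 alternative (B2m, Nlrc5, Tap1, Tap2 and Cd274). H2-D1 differed by +0.67 (SE 0.61, adjusted p = 0.657) and Tapbp by -0.66 (SE 0.52, adjusted p = 0.615). The median over the members was +0.48, against -0.01 over all genes tested. The tumor lines were far apart on Cd274, with 5.45 CPM in the peritoneal line and 0.380 CPM in the splenic line. The SEs of the 10 members ran from 0.52 to 1.10 log2 units.

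**Figure D3:**
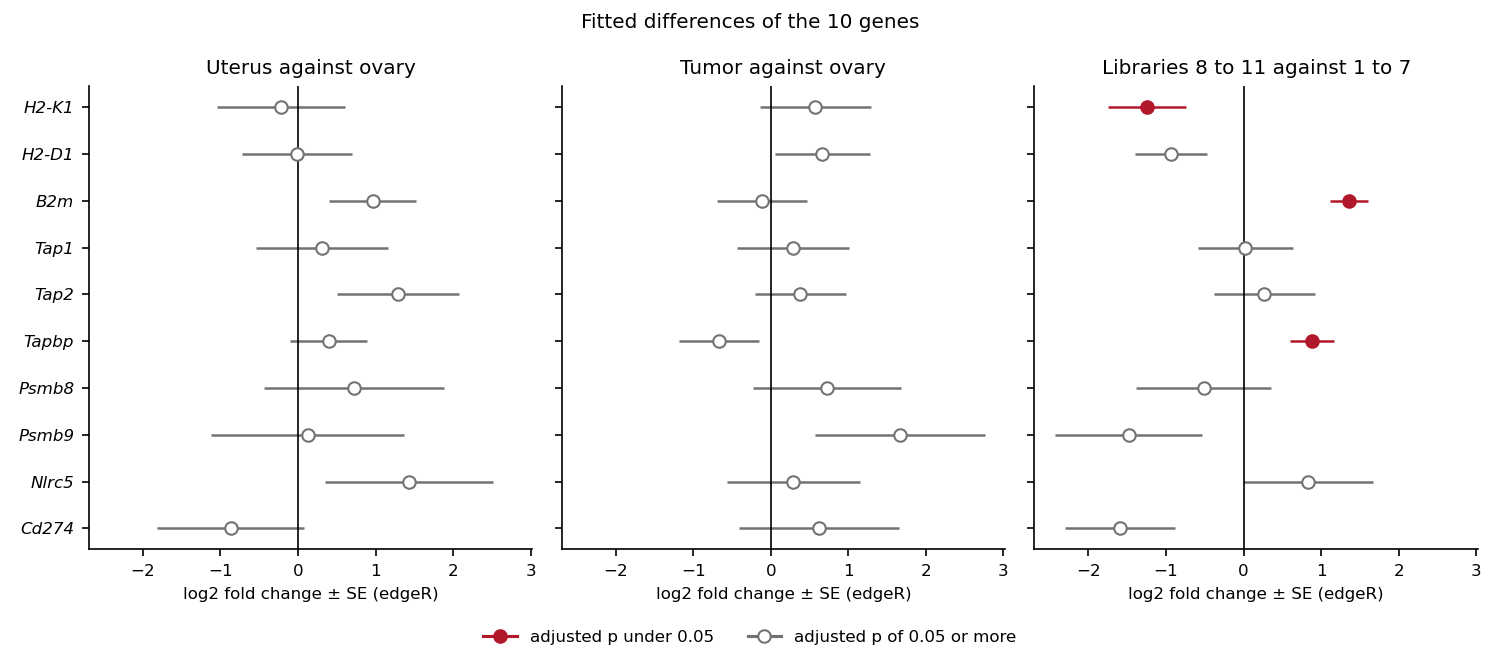
Fitted log2 fold change of each member with its standard error in the 3 comparisons (edgeR), filled where the adjusted p was under 0.05. No point is filled for uterus or tumor against ovary, and 3 are filled between the library sets, with B2m (+1.36) and Tapbp (+0.88) higher and H2-K1 (-1.25) lower in libraries 8 to 11.

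Between the library sets, 4568 of 15954 genes were called higher in libraries 8 to 11 (28.6%) and 4769 lower (29.9%). Of the members, 2 of 10 were called higher and 1 of 10 lower, both under the background shares. B2m was higher by 1.36 log2 units (SE 0.24, edgeR adjusted p = 0.000638) and Tapbp by 0.88 (SE 0.28, adjusted p = 0.0181), whereas H2-K1 differed by -1.25 (SE 0.50, adjusted p = 0.0488). The median over the members was -0.25, against 0.03 over all genes tested. H2-D1 (-0.93, SE 0.47, adjusted p = 0.102) and Cd274 (-1.59, SE 0.71, adjusted p = 0.0716) missed the threshold. B2m was the 1 member whose sets did not overlap in CPM, against 26.1% of genes higher and 17.1% lower without overlap. The fitted values for Tap1 (0.02) and Tap2 (0.27) were small beside their errors (0.61 and 0.65).

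Among the alternatives run, the B2m call was kept in all 18, with values from +1.18 to +1.51. The H2-K1 call lay at the threshold. It was kept in 8 of 18 alternatives, with adjusted p from 0.00178 to 0.126 and values from -2.19 to -0.90, and was lost when any of 9 of the 11 lines was left out. With the mouse as a random block (limma voom), 28.8% of all genes were called higher and 30.2% lower. In that fit H2-K1 differed by -1.64 (adjusted p = 0.0108) and H2-D1 was also called lower (-1.25, adjusted p = 0.0288). Cd274 was not called there (adjusted p = 0.173), whereas DESeq2 called Cd274 lower (adjusted p = 0.0305). So did edgeR without the F326 splenic tumor line (-1.78, adjusted p = 0.0304). The number of members called depended on the F319 uterus line. Without it, 7 of 10 members were called, 2 higher and 5 lower (26.2% and 28.5% of all genes in that fit), and the latter were H2-K1 (-2.11), H2-D1 (-1.66), Tap2 (-1.39), Psmb8 (-2.51) and Psmb9 (-2.94). Without F339 ROV, B2m was the only member called, where 26% of all genes were higher and 28.1% lower, and Tapbp fell to +0.66. Within ovary lines only (2 against 5), B2m was called higher and H2-K1 and H2-D1 were called lower (H2-D1 by -1.57), against 18.6% of genes called higher and 22.1% lower there.

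Related genes that were listed together were counted in the same fit, read against the background of 28.6% higher and 29.9% lower. Among other class I and class I-like heavy chains, 8 of 15 tested were lower in libraries 8 to 11 (H2-Q1, H2-Q2, H2-Q4, H2-Q6, H2-Q7, H2-Q10, H2-K2 and H2-Bl) and 1 was higher (H2-M3), with a median of -2.86 (0.03 over all genes tested). H2-Q4, for example, ranged from 14.7 to 50.1 CPM in the first set and from 0.262 to 8.21 CPM in the second. H2-T22 and H2-T23, nonclassical genes of the T region, did not pass the test (+0.31, SE 0.24, and -0.33, SE 0.44). Several Q genes are close in sequence, so the split of reads among them is uncertain.

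Among other loading and processing genes, 4 of 9 were higher (Calr, Canx, Pdia3 and Psme3) and 0 lower, with a median of +0.41. Calreticulin (Calr), calnexin (Canx) and ERp57 (Pdia3) are chaperones of the endoplasmic reticulum that serve many glycoproteins besides class I. Pdia3 was higher by 1.82 log2 units (SE 0.33, edgeR adjusted p = 0.000713). Psmb10, Psme1, Psme2, Erap1 and Tapbpl, which are nearer to the class I pathway, did not pass (-0.20, -0.74, -0.23, +0.37 and +0.41). All 3 constitutive catalytic subunits were lower (Psmb5 -1.05, Psmb6 -1.16 and Psmb7 -0.94), as were 5 of 11 other core proteasome subunits (Psma3, Psma5, Psma7, Psmb3 and Psmb4).

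Among 12 regulators of class I genes, Irf1 (+1.05, SE 0.34, edgeR adjusted p = 0.018) and Nfya (+1.68) were higher, Rfxap (-1.24), Rfxank (-0.77) and Nfyc (-0.69) were lower, and Rfx5 (+0.10) did not pass. Irf1 was highest in the F319 uterus line (69.6 CPM) and lowest in F364 ROV (7.80 CPM). Of the interferon receptor genes, Ifngr1 (+0.45), Ifnar1 (+1.13) and Ifnar2 (+1.17) were higher. Of 17 interferon-stimulated genes tested, Ifit1 (+2.79) and Ifit2 (+1.83) were higher. F339 ROV stood apart here with a summed 596 CPM over 20 such genes, against 55.2 to 193.8 CPM in the other lines. In that line Tapbp was the highest and Tap1 and B2m the second highest of the 11, while Psmb8, Psmb9 and Nlrc5 ranked 8 of 11 and H2-K1 ranked 9.

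Among 9 other checkpoint ligands tested, 4 were higher (Cd276, Pvr, Lgals9 and Cd47) and 1 lower (Tnfrsf14, which ranged from 0.0928 to 2.14 CPM over the lines). Cd276, which encodes B7-H3, was higher by 1.65 log2 units (SE 0.44, edgeR adjusted p = 0.00734), and Cd47, the signal that restrains phagocytes, by 1.63 (SE 0.25, adjusted p = 0.000247). Cmtm4 was higher by 1.64 (SE 0.24), and Cmtm6 did not pass (+0.36). Of 4 tested ligands of NK cell receptors, Raet1e (+3.12) and Ulbp1 (+1.87), both ligands of the receptor NKG2D, were higher. In the uterus and tumor comparisons edgeR called 0 genes of these lists, as it called 0 of all genes, and DESeq2 calls were not counted by list.

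Other cell types moved with the library sets, and their part in the class I values was not tested. For the counts in this paragraph, the shares over all genes tested were 28.6% called higher, 29.9% called lower and 17.1% lower without overlap. Of 12 leukocyte markers tested, 11 were lower in libraries 8 to 11, and 10 of the 22 found were lower there without overlap between the sets. All 4 Y-linked genes of the list (Ddx3y, Uty, Eif2s3y and Kdm5d) were lower as well. Libraries 1 to 7 held a Y-linked sum between 127.8 and 173.8 CPM, and the other set one between 1.75 and 19.2 CPM. The mice were female, as the study dissected uterus, ovaries and fallopian tubes from them. The source of these Y-linked reads was not tested. Of 10 endothelial markers 8 were lower (median -4.48). F339 ROV was an exception, with an endothelial sum of 234.2 CPM inside the range of libraries 1 to 7 (201.7 to 554.3 CPM) and Emcn at 153.5 CPM, the highest of all lines, whereas the sums were 3.49 CPM in F318 LOV and 9.65 CPM in the F319 uterus line. Of 14 mesenchymal markers 7 were higher and 2 lower (median +1.80). Lyz2 was at 17.0 to 78.0 CPM and C1qa at 9.70 to 27.6 CPM in libraries 1 to 7, whereas the other set had 1.70 to 7.37 CPM of Lyz2 and 0.0873 to 0.814 CPM of C1qa. Ptprc, carried by all leukocytes, was at 0.759 to 1.97 CPM and at 0 to 0.275 CPM, while Cd3e and Cd8a stayed at 0 to 0.457 CPM in every line. Of 7 class II presentation genes tested, 5 were lower (H2-Aa, H2-Ab1, H2-Eb1, Cd74 and Ctss), and their 8 genes summed to 20.3 to 120 CPM in the former set and 7.65 to 13.7 CPM in the latter. Fewer cells of a type and less RNA per cell cannot be told apart in bulk libraries. The heavy chain genes were at 152 and 260 CPM in the F319 uterus line, whose leukocyte markers summed to 14.6 CPM and class II genes to 7.65 CPM. In the remaining lines of libraries 8 to 11, whose leukocyte sums were 18.7 CPM (F339 ROV), 7.25 CPM (F318 LOV) and 9.28 CPM (F333 uterus), H2-K1 was at 49.1, 14.0 and 35.4 CPM, below every line of libraries 1 to 7. H2-D1 was at 107.2, 30.3 and 63.3 CPM in these lines, of which the first lay within the range of libraries 1 to 7.

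**Figure D4:**
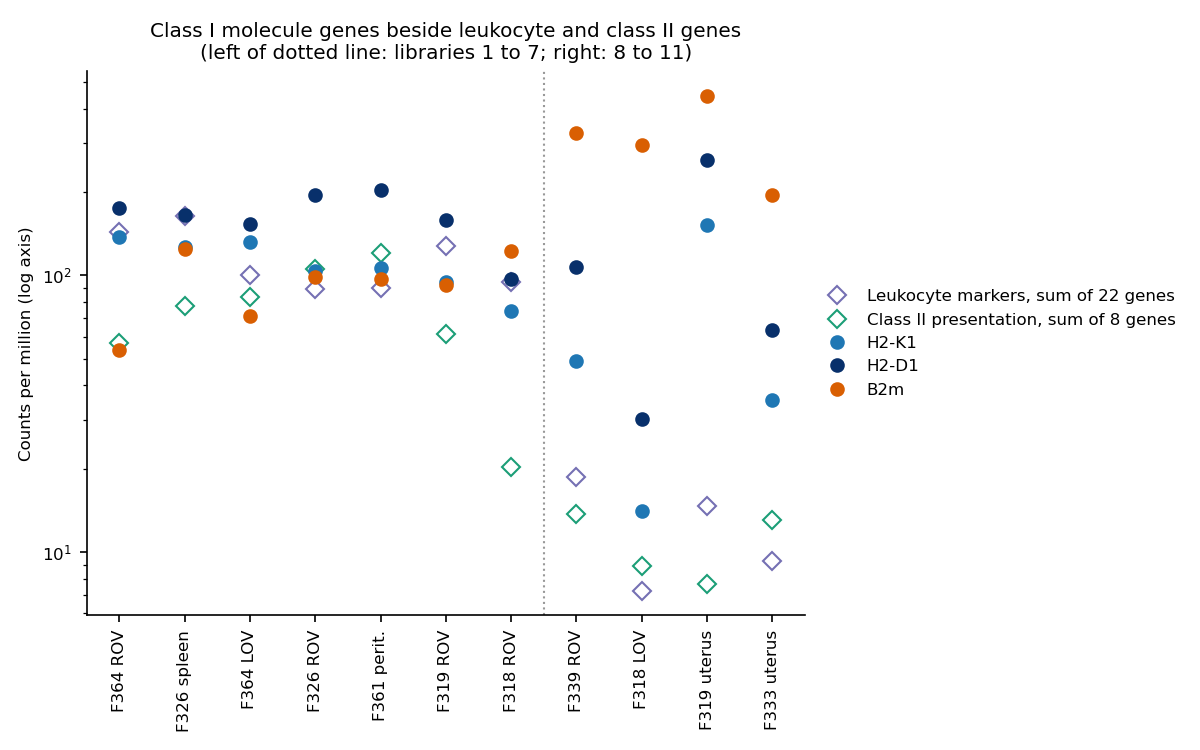
CPM on a log axis of H2-K1, H2-D1 and B2m beside the summed CPM of leukocyte markers and of class II presentation genes in each line. Leukocyte sums lie between 89.2 and 163.7 CPM left of the dotted line and between 7.25 and 18.7 CPM right of it, while H2-K1 and H2-D1 are highest in the F319 uterus line, on the right (not so with TMM-scaled CPM).

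Lines of the same mouse allow a comparison within 1 mouse, without replication and so without a test. F364 LOV and F364 ROV, both in libraries 1 to 7, differed by a median absolute 0.40 in log2(CPM + 1) over the members (0.31 over all genes), with 5 members higher and 5 lower and Tap1 (+0.88), Tap2 (+0.92) and Psmb9 (+0.74) as the largest. The F326 splenic tumor line was lower than F326 ROV for 8 of 10 members, with a median of -0.83 (-0.09 over all genes). Cd274 differed by -2.43, Psmb8 by -1.17 and Tapbp by -1.03, whereas H2-K1 (+0.29) and B2m (+0.33) were slightly higher. Both of these libraries belong to the set 1 to 7.

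The pairs of F318 and F319 each span the library sets. F318 LOV was lower than F318 ROV for 7 of 10 members, with a median of -1.57 (0.13 over all genes), led by H2-K1 (-2.33) and Psmb8 (-2.23), while B2m (+1.26), Nlrc5 (+1.11) and Tapbp (+0.60) were higher. The F319 uterus line was higher than F319 ROV for 8 of 10, with a median of +1.18 (0.30 over all genes), led by B2m (+2.25), Tap2 (+1.97) and Nlrc5 (+1.85), while Psmb9 (-0.02) and Cd274 (-0.37) were not. B2m, Tapbp and Nlrc5 were thus higher in the line from libraries 8 to 11 in both mice. Cd274 was lower there (-0.85 in F318 and -0.37 in F319), but its Wilson intervals overlapped in F319 (1.498 to 2.563 and 2.205 to 3.609 CPM). Psmb9 was lower there in F318 (-1.49, with 2 counts in F318 LOV) and about equal in F319 (-0.02). The heavy chains, Tap1, Tap2 and Psmb8 went opposite ways. In the F318 pair the mouse and the organ were held constant and the side and library set were not. In the F319 pair the organ and library set both differed.

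**Figure D5:**
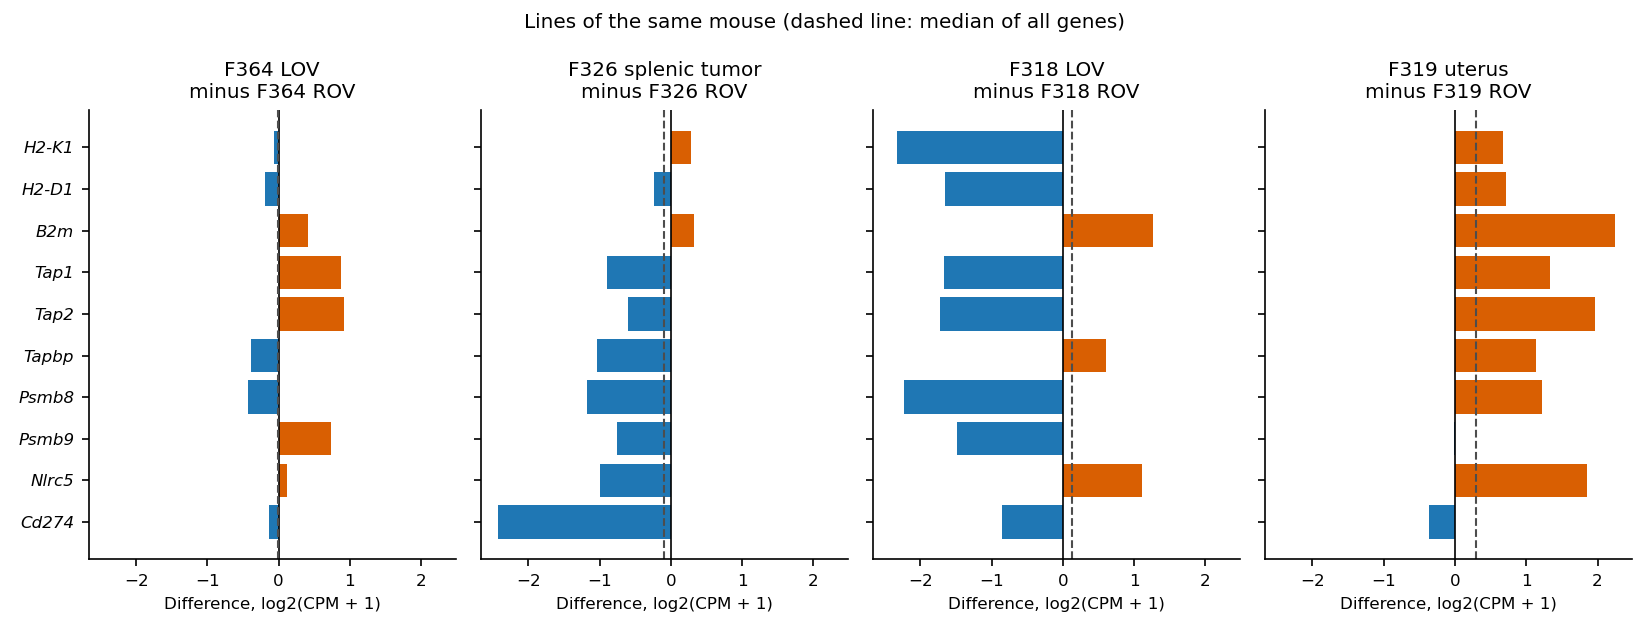
Difference in log2(CPM + 1) of each member between the 2 lines of a mouse, with the median of all genes as a dashed line. Cd274 has the largest difference between the lines of F326 (-2.43), and the members other than B2m, Tapbp and Nlrc5 are lower in F318 LOV than in F318 ROV.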

How the data were processed

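Poly(A) RNA of each line was made into strand-specific libraries (NEBNext Ultra II Directional) and sequenced as paired reads of 150 bases. The authors aligned reads with RNA STAR to mm10 (GRCm38), removed PCR duplicates with SAMtools RmDup, and deposited raw featureCounts counts per gene without normalization. Groups were taken from sample titles and library sets from the sample descriptions. CPM were computed from the library totals, with 95% Wilson intervals, which cover counting error only. Comparisons used edgeR 4.0.16 (TMM, filterByExpr, quasi-likelihood test, Benjamini-Hochberg), tested on simulated data, with R 4.3.3. DESeq2 1.42.0, limma 3.58.1 (mouse as random block), other scalings and filters, library set or group as a term, and leaving out each line were alternatives. Ranges used log2(CPM + 1). Positions and exon lengths came from GENCODE M21, promoters from RefSeq. The members, gene lists and comparisons were chosen with earlier results of these data known. All members are named. By rule, list genes are named where they passed the test, lay at an end of their list or partner a member, except that marker lists of other cell types are given mainly as counts. Tables were handled in Python 3.11.15 (pandas 2.3.3, numpy 2.4.6, scipy 1.17.1).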

Additional observations from a re-analysis of the deposited data

Results flagged for a closer look

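H2-D1 was the 1 member with a line far from the others. Among the 7 ovary lines, F318 LOV was lowest at 30.3 CPM, and its gap to the next line took 0.623 of the group's whole log2 range, above Dixon's 95% critical value for 7 values. Among libraries 1 to 7, F318 ROV was lowest at 97.2 CPM, with a gap that also took 0.623 of the range. The members were examined in the ovary lines and in both library sets, 30 sets of values in all, of which 2 were past the critical value. Chance alone passes it in about 1 in 20 sets. Both lines came from mouse F318.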

How the results depend on the processing

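For uterus against ovary, the 0 genes of edgeR became 1315 with DESeq2, 2 with no filter on low counts, 2 with the mouse as a random block in limma voom, and 1 with the library set as a term, and ran from 0 to 1 when each line was left out, the 1 coming without the F333 uterus line. For tumor against ovary, the 0 genes became 266 with DESeq2 and 9 with the library set as a term. The 9337 genes between the library sets stayed within 1.5 times under every alternative, from 6371 to 10862. For the members, 478 of 499 fold changes kept their side of the threshold. These were 160 of 160 in each organ comparison, where no member was called, and 158 of 179 between the library sets. No member called with all lines turned sign. The Tap2 difference between library sets, +0.27 and not called with all lines, ran from -1.39 to +0.64 when each line was left out, and was called at -1.39 without the F319 uterus line. Tapbp lost its call with group as a term (+0.88), in ovary lines only (+0.89) and without F339 ROV (+0.66). H2-K1 lost its call in 10 of 18 alternatives. Uncalled differences changed sign 49 times. With a pseudocount of 0.1, the log2 ranges of Psmb8, Psmb9, Nlrc5 and Cd274 grew to 5.62, 5.79, 5.25 and 3.76, from 3.998, 3.37, 3.58 and 2.43, as counts of 2 to 8 in single lines weigh more. Depth limits the low values of these 4 genes. The causes of the other changes were not tested.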
